A study of Mus musculus with 8 samples.

Results

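The stathmins and the growth cone proteins studied here are 8 genes, Stmn1, Stmn2, Stmn3, Stmn4, Gap43, Basp1, Marcks and Marcksl1, of the 19224 genes measured in single neurons of the mouse stellate ganglion. They were chosen by name and by their levels across the neuronal subtypes, which were already known from these data, and all 8 were measured. The ganglion was taken from 8 adult C57BL6/J mice aged 8 to 10 weeks, which the study describes as males. All mice belonged to 1 condition, in which the heart received an adeno-associated virus for GFP and the front paws one for tdTomato, so no untreated group was compared. The labels name each mouse as a sample of its own, whereas the dissociation protocol speaks of 16 ganglia combined. The comparisons are therefore between the 8 neuronal subtypes that the authors clustered and named (noradrenergic NA1a, NA1b, NA1c, NA2 and NA3, cholinergic Ach1 and Ach2, and glutamatergic Glut), and, within a subtype, between neurons with little and much Npy, the transcript of neuropeptide Y.

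Stathmins bind soluble tubulin and promote the shortening of microtubules, and phosphorylation of the stathmin releases the tubulin. Stmn1 is cytosolic and occurs in many dividing and neural cells, while Stmn2, Stmn3 and Stmn4 are neural and carry an added N-terminal domain that is palmitoylated and ties them to Golgi and transport vesicles. Gap43, Basp1, Marcks and Marcksl1 are acidic proteins of the inner face of the plasma membrane that bind acidic lipids and calmodulin, are substrates of protein kinase C, and act on the actin cytoskeleton under the membrane of the growth cone. Sympathetic neurons are known to keep transcripts of this growth programme in the adult.

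In GENCODE vM21, on the GRCm38 build, the stathmins lie on different chromosomes and each is counted over the exons of a protein-coding gene. Stmn1 lies at chr4:134468320-134473843 on the plus strand, Stmn2 at chr3:8509360-8561606 on the plus strand, Stmn3 at chr2:181306459-181314500 on the minus strand and Stmn4 at chr14:66344296-66361680 on the plus strand. The coding sequences of any 2 stathmins were 68.8% to 73.6% identical over their aligned bases. The first 90 coding bases, codons 1 to 30, are printed because they carry the feature that separates Stmn1 from the other stathmins, with each cysteine codon in capitals:
Stmn1: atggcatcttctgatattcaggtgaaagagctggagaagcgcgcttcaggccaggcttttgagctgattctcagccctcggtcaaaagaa
Stmn2: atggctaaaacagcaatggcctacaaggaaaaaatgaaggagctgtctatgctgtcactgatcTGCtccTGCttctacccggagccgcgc
Stmn3: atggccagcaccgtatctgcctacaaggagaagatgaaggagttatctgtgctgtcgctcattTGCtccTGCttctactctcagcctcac
Stmn4: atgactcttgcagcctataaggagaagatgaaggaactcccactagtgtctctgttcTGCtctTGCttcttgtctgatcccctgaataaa
Stmn1 has no cysteine codon here or in any of its 149 codons. Stmn2 and Stmn3 have a pair at codons 22 and 24, and Stmn4 at codons 20 and 22, which are the residues known to be palmitoylated.

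Of the membrane proteins, Gap43 lies at chr16:42248442-42340651, Basp1 at chr15:25363277-25413764 and Marcks at chr10:37133375-37138920, all on the minus strand, and Marcksl1 at chr4:129513581-129515985 on the plus strand. The first 15 codons are printed because they hold the residues by which these proteins are anchored. Capitals mark the cysteine codons 3 and 4 of Gap43, which are palmitoylated, and the second codon of the others, a glycine codon in each, where myristate is attached:
Gap43: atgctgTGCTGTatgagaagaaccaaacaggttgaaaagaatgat
Basp1: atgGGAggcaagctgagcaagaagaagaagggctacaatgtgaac
Marcks: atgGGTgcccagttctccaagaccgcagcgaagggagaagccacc
Marcksl1: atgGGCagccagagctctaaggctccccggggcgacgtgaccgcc

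The coding sequences of Marcks and Marcksl1 were 64.7% identical over the aligned bases. Their windows of 25 codons with the most lysine and arginine codons, codons 145 to 169 of Marcks and 86 to 110 of Marcksl1, are shown because Marcks and Marcksl1 form a pair by their basic effector domain, which binds lipids and calmodulin. Capitals mark the lysine and arginine codons, 13 in Marcks and 12 in Marcksl1:
Marcks: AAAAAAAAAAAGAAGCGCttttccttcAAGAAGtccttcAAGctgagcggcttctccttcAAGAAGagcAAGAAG
Marcksl1: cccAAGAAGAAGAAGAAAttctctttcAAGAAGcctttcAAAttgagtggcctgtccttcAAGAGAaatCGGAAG

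The data covered 1303 neurons, of which 1002 came from 5 mice that could be matched to a sample (replicates 1 to 5) and 301 from 3 mice that could not and are given only pooled. The study lists all 5 matched mice in its batch 2 and its 3 other mice in batch 1, so the replicates come from 1 batch. A level is the mean number of UMIs (counted molecules) per 10000 in a neuron, averaged over the neurons of a subtype in a mouse with at least 10 of them. Neurons held 679 to 19949 UMIs, with subtype medians from 2206.5 in Ach1 to 6773 in NA3. Neurons of NA2 stood apart in RNA composition. The 6 nuclear long noncoding RNAs Malat1, Meg3, Snhg11, Neat1, Miat and Kcnq1ot1 took 0.481% to 1.12% of its UMIs per mouse against 11.5% to 15.9% in NA1c, and mitochondrial transcripts took 6.16% to 8.84% against 1.88% to 5.65%. In addition, 21 cell barcodes occurred in 2 to 5 mice each, on 73 neurons, of which 55 were NA2, 15 Ach2 and 3 Glut. Of the 98 pairs of neurons with the same barcode in different mice, 96 were of the same subtype. Neurons of NA3 and Ach1 held more transcripts that mark other cells, with 10 satellite glia markers summing to 189 to 349 and 123 UMIs per 10000 against at most 28.2 in NA1a, NA1b, NA1c and NA2, and 8 fibroblast markers to 12.1 to 33.9 and 39.2 against at most 3.47. The 8 neuronal markers were present in each subtype but lower in NA3, at 65.0 to 69.6 UMIs per 10000 against 124 to 143 in NA1c. Whether these transcripts came from other cells or from the neurons was not tested, and Fabp7, on the satellite glia list, also serves the study as a marker of NA3. Doublets were not removed here, and the study's methods name no such step.

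Stmn2, which is induced in growing neurites, was present in nearly every neuron. After thinning to 2000 UMIs, at least 1 Stmn2 UMI was found in 83.3% of NA3 neurons and in 94.7% to 100% of the other subtypes, against unthinned values of 97.0% and 97.7% to 100%. The share that free RNA alone would give is unknown, because the table holds neurons only. Its level was 50.7, 47.1, 56.1, 53.9 and 55.0 UMIs per 10000 in NA2 of replicates 1 to 5. In NA1a it was 33.8, 33.7, 37.3, 32.2 and 33.7, in NA1b 23.9, 18.6, 30.3, 25.1 and 23.7, and in NA1c 23.1, 22.0, 25.1, 20.0 and 24.7. NA2 lay above NA1a, and NA1a above NA1b and NA1c, with no overlap of the mice between these 3 steps, while NA1b and NA1c overlapped. In NA3, which had 10 neurons only in replicates 2, 4 and 5, it was 17.0, 14.6 and 12.3. Stmn2 was thus lowest in NA3 among the noradrenergic subtypes. The single Ach1 value was 24.6, Ach2 gave 27.1 and 24.2 in replicates 1 and 4, and the 37 Glut neurons, pooled, gave 33.5.

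Stmn1, the cytosolic stathmin, separated NA1a from both NA1b and NA1c. Its level was 15.1, 13.5, 16.0, 12.2 and 10.7 UMIs per 10000 in NA1a of replicates 1 to 5. It was 7.03, 6.02, 7.59, 5.76 and 5.37 in NA1b and 7.71, 6.64, 6.42, 5.29 and 6.22 in NA1c. The lowest NA1a mouse lay above the highest mouse of both other NA1 subtypes. In NA2 it was 20.4, 20.1, 20.1, 16.2 and 16.0, so that its lowest mice touched the highest NA1a mouse, although NA2 was above NA1a within each of the 5 mice. NA3 ranged from 10.2 in replicate 2 to 5.67 and 4.75 in replicates 4 and 5 and could not be placed relative to NA1b and NA1c. Ach1 gave 11.6, Ach2 5.88 and 6.89, and Glut 8.68.

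**Figure D1:**
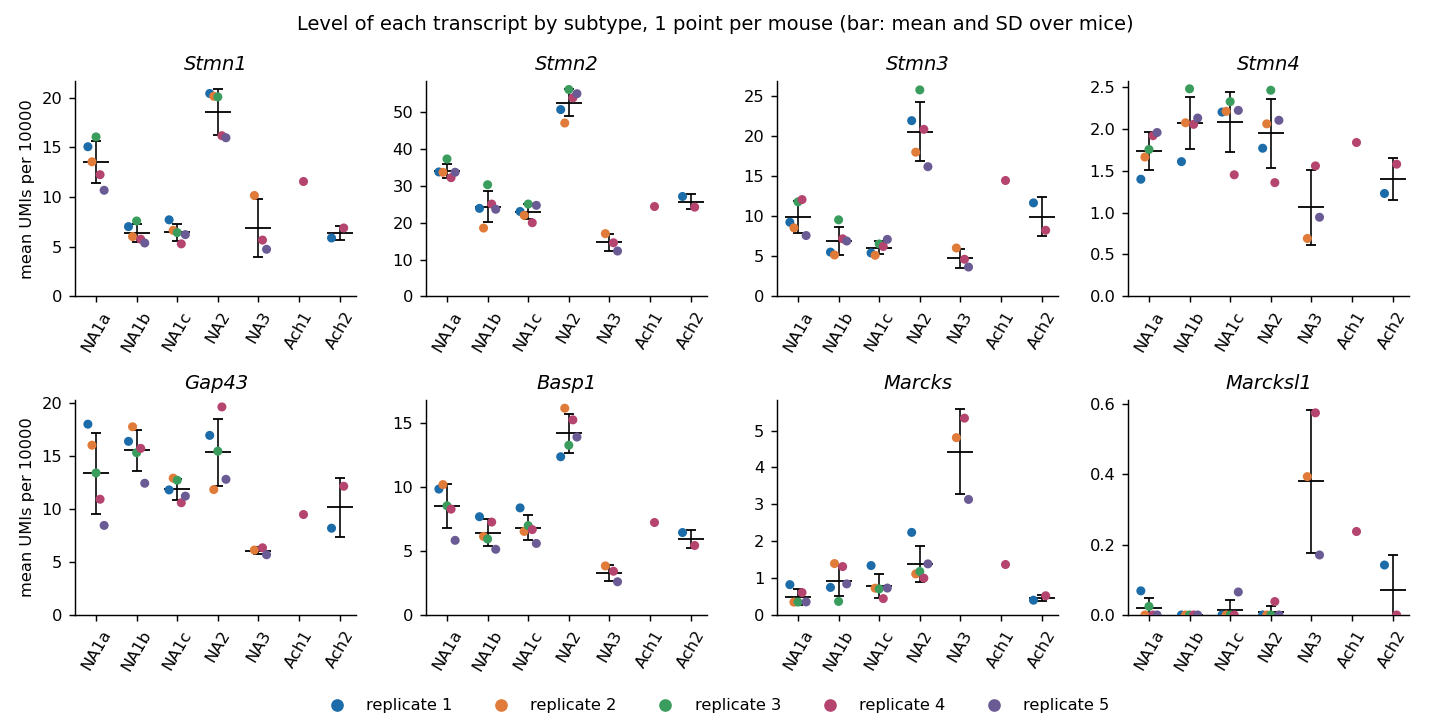
Level of each of the 8 transcripts, in mean UMIs per 10000 (vertical axis), by subtype (horizontal axis), with 1 point per mouse and bars for the mean and SD over mice. Stmn1, Stmn2, Stmn3 and Basp1 were highest in NA2 and next highest in NA1a among the noradrenergic subtypes, whereas Marcks and Marcksl1 were highest in NA3.

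Stmn3 followed Stmn2 with a larger step up in NA2. It reached 21.9, 18.0, 25.8, 20.9 and 16.2 UMIs per 10000 in NA2 of replicates 1 to 5, against 9.26, 8.57, 11.8, 12.1 and 7.60 in NA1a. The mice of the 2 subtypes did not overlap. NA1b averaged 6.88 ± 1.73 (SD, n = 5), NA1c 6.10 ± 0.814 (SD, n = 5) and NA3 4.79 ± 1.20 (SD, n = 3), and these neighbours did not differ beyond their spread. Ach1 gave 14.6, Ach2 11.7 and 8.26, and Glut 13.7. Ach1 and Glut lay between the mice of NA1a and those of NA2. Ach2 could not be placed, since its mean of 9.97 over 2 mice became 16.3 with at least 5 neurons per mouse and 6.83 without the neurons of shared barcodes.

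Stmn4 was low and flat. Its average was 1.74 ± 0.224 UMIs per 10000 for NA1a neurons, 2.07 ± 0.309 for NA1b, 2.08 ± 0.355 for NA1c and 1.95 ± 0.411 for NA2 (SD, n = 5 each), with overlapping mice throughout. NA3 gave 0.691, 1.56 and 0.944 in replicates 2, 4 and 5, below NA1a of the same mouse in each. Of all stathmin UMIs, Stmn4 took 5.50% ± 0.657 in NA1c and 2.08% ± 0.401 in NA2 (SD, n = 5), with 4.09% ± 1.94 in NA3 (SD, n = 3). The makeup of the stathmin pool shifted in the other members as well. Stmn1 took 22.7% ± 2.27 of it in NA1a against 16.2% ± 2.30 in NA1b and 17.2% ± 2.00 in NA1c (SD, n = 5), and its share was 24.4% ± 4.77 in NA3 (SD, n = 3) and 22.0% in Ach1. Stmn3 took 21.8% ± 2.52 in NA2 against 16.3% to 17.2% in the NA1 subtypes, and 27.7% in Ach1 and 22.8% in Ach2.

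Gap43, the neuronal substrate of protein kinase C in growth cones, did not follow the stathmins. Its level was 17.0, 11.8, 15.5, 19.6 and 12.8 UMIs per 10000 in NA2 of replicates 1 to 5, and 18.0, 16.0, 13.4, 10.9 and 8.46 in NA1a. It averaged 15.5 ± 1.96 in NA1b and 11.9 ± 0.984 in NA1c (SD, n = 5). These 4 subtypes overlapped, and no neighbours in their order differed beyond the spread. NA3, with 6.13, 6.34 and 5.69 in replicates 2, 4 and 5, lay below all mice of NA1a, NA1b, NA1c and NA2. Ach1 gave 9.55, Ach2 8.19 and 12.2, and Glut 17.6.

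Basp1, which shares with Gap43 its place at the membrane but is held there by myristate, was closer to Stmn2 than to Gap43 in its levels. It was 12.4, 16.2, 13.3, 15.2 and 13.9 UMIs per 10000 in NA2 of replicates 1 to 5 and 9.84, 10.2, 8.53, 8.27 and 5.83 in NA1a. NA1b averaged 6.43 ± 1.03 and NA1c 6.83 ± 1.01 (SD, n = 5), and NA3 gave 3.83, 3.42 and 2.59. NA2 lay above and NA3 below all mice of the NA1 subtypes, which overlapped with each other. After thinning to 2000 UMIs, Basp1 was found in 91.1% of NA2, 41.1% of NA3 and 60.9% to 67.5% of NA1 neurons, against unthinned shares of 92.6%, 72.7% and 77.5% to 88.6%.

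Marcks differed from the stathmins in being highest in NA3. There it was 4.81, 5.33 and 3.13 UMIs per 10000 in replicates 2, 4 and 5, and in NA2 it was 2.24, 1.11, 1.18, 0.998 and 1.38 in replicates 1 to 5. NA1a averaged 0.496 ± 0.213, NA1b 0.932 ± 0.424 and NA1c 0.789 ± 0.330 (SD, n = 5). The 3 NA3 mice lay above all mice of the other subtypes. Each NA2 mouse lay above all mice of NA1a, at 0.348 to 0.822, and of Ach2, at 0.400 and 0.521. NA1b and NA1c overlapped both NA1a and NA2. Marcksl1, its relative, was close to the limit of detection. A UMI of it was found in 21 of 99 NA3 neurons and 4 of 64 Ach1 neurons, and in 4 of 316 NA1a, 2 of 311 NA1b, 2 of 239 NA1c, 2 of 175 NA2 and 2 of 62 Ach2 neurons. In Glut it was 0 of 37, which allows a share of up to 8.11% by counting error alone. Because NA3 neurons were deeper, this was repeated after thinning, which left Marcksl1 in 5.56% of 90 NA3 neurons and in 0% to 1.10% of the other subtypes. The thinned level was 0.0556 Marcksl1 UMIs per NA3 neuron and 0 to 0.0110 in the other subtypes, which rests on very few UMIs.

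Marcks and Marcksl1 were highest in the subtype with the most RNA of satellite glia markers, as the plot against the satellite glia markers shows. Of the 99 NA3 neurons, 15 had under 0.5% of their UMIs in the 10 satellite glia markers. Marcks averaged 1.91 UMIs per 10000 in these 15 neurons and 3.98 in the 84 others, against 0.712 in 229 NA1c and 0.833 in 303 NA1b neurons under the same limit. Thus Marcks was lower in the NA3 neurons with little of this RNA than in the rest, and still above NA1b and NA1c. It was 1.21 in 170 NA2 neurons under the limit. The NA1 subtypes also had more Marcks at or over the limit, at 3.57 in 8 NA1b, 1.94 in 10 NA1c and 1.93 in 7 NA1a neurons. In NA2, 5 such neurons gave 0.849. These sets are small and pooled over mice. Marcksl1 had no UMI in the 15 neurons, and averaged 0.392 in the 84 others. Stmn2 in NA3 was 15.8 and 13.3, Gap43 9.10 and 5.37 and Basp1 3.18 and 2.91 in the 2 sets. Stmn1 went the other way, at 4.05 in the 15 neurons and 6.71 in the 84 others. The 15 neurons were pooled over mice and have no replicate error, and the part of glia marker RNA in the levels of Marcks and Marcksl1 was not tested.

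**Figure D2:**
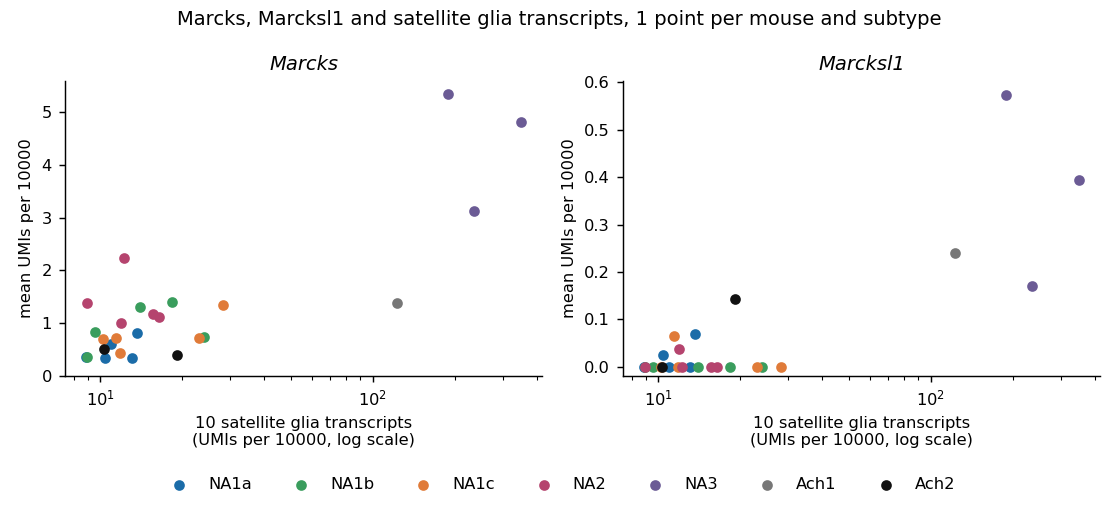
Level of Marcks (left) and Marcksl1 (right), in mean UMIs per 10000, against the summed level of 10 satellite glia transcripts in UMIs per 10000 on a log axis, with 1 point per mouse and subtype. The 3 NA3 points, at 189 to 349 glial UMIs per 10000, had the highest Marcks, and the Ach1 point, at 123, had Marcks of 1.38 and Marcksl1 of 0.239.

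Among the noradrenergic subtypes, the unmatched mice, pooled with no replicate error, also had NA2 highest and NA1a next in Stmn2, Stmn1 and Basp1. Stmn2 was 46.0 UMIs per 10000 in their 25 NA2 neurons, 21.7 in 134 NA1a, 16.8 in 23 NA1c and 13.5 in 74 NA1b neurons. Stmn1 was 13.4, 8.52, 5.42 and 4.17 in the same order of subtypes. Basp1 was 9.34 in NA2 and 4.10 in NA1a. In NA1a each of these pooled levels lay below every matched mouse. Those mice ranged from 32.2 to 37.3 in Stmn2, 10.7 to 16.0 in Stmn1 and 5.83 to 10.2 in Basp1. The part of batch in this was not tested. The 20 Glut neurons of these mice gave 36.3 for Stmn2, 9.07 for Stmn1 and 13.1 for Basp1. Their 16 Ach2 neurons gave 29.3, 2.76 and 7.50. Glut thus lay above NA1a in each, and above NA2 in Basp1. Stmn3 was also highest in NA2, at 20.4, and next in NA1a, at 8.41, which lay within the matched range of 7.60 to 12.1. Marcks and Gap43 did not keep the order of the matched mice. Marcks was 0.408 in NA2, 0.504 in NA1a, 0.439 in NA1b and 0.397 in NA1c. Gap43 was 9.09 in NA1b and 10.5 in NA1c. None of the shared barcodes was in these mice.

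To compare subtypes within the same mouse, the log2 of the level plus 0.1 was subtracted, and a gene was counted as apart where the mean difference was at least 1.5-fold and had the same sign in every mouse. The clusters were made from these cells and the members were proposed from their subtype levels, so these differences are descriptions without a test. Marcksl1 was under the minimum level of 0.5 in each comparison, and counts are over the 7 other members. NA1a exceeded NA1b most in Stmn1, by log2 1.07 ± 0.06 (SD, n = 5), or 2.10-fold, with a range over mice of 0.98 to 1.16. Stmn1 lay above 97.8% of the 4356 genes compared. It was the 1 member apart, while 15.7% of these genes were, which is a share near the background. With a pseudocount of 1 in place of 0.1, Stmn1 was still the 1 member apart, and 4.43% of genes were. Just outside the 1.5-fold limit were Stmn3 at log2 0.53 ± 0.29 and Stmn2 at 0.50 ± 0.22, each higher in 5 of 5 mice. Basp1 differed by 0.39 ± 0.23, Stmn4 by -0.23 ± 0.16, Gap43 by -0.26 ± 0.29 and Marcks by -0.74 ± 0.77 (SD, n = 5), the last with 4 of 5 mice lower in NA1a. Without replicate 1 Marcks was also apart, and without replicate 5 Stmn3 was, which makes 2. Over all genes 723 and 918 were apart in these 2 settings, against 686 with every replicate.

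Against NA1c, NA1a was higher in Stmn1 by log2 1.05 ± 0.21 and in Stmn3 by 0.67 ± 0.33 (SD, n = 5). These were the 2 members apart, against 17.6% of 4389 genes. Stmn3 was just inside the limit and Stmn2, at 0.57 ± 0.09 and higher in 5 of 5 mice, just outside it. With each profile centred on its median gene Stmn2 was apart as well, and the 393 genes higher and 379 lower in NA1a became 504 and 274. NA1b and NA1c had no member apart, against 7.67% of 4341 genes, and this count was 0 in all alternatives tried. The member that differed most evenly between them was Gap43, higher in NA1b by log2 0.38 ± 0.17 in 5 of 5 mice, short of the 1.5-fold limit.

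**Figure D3:**
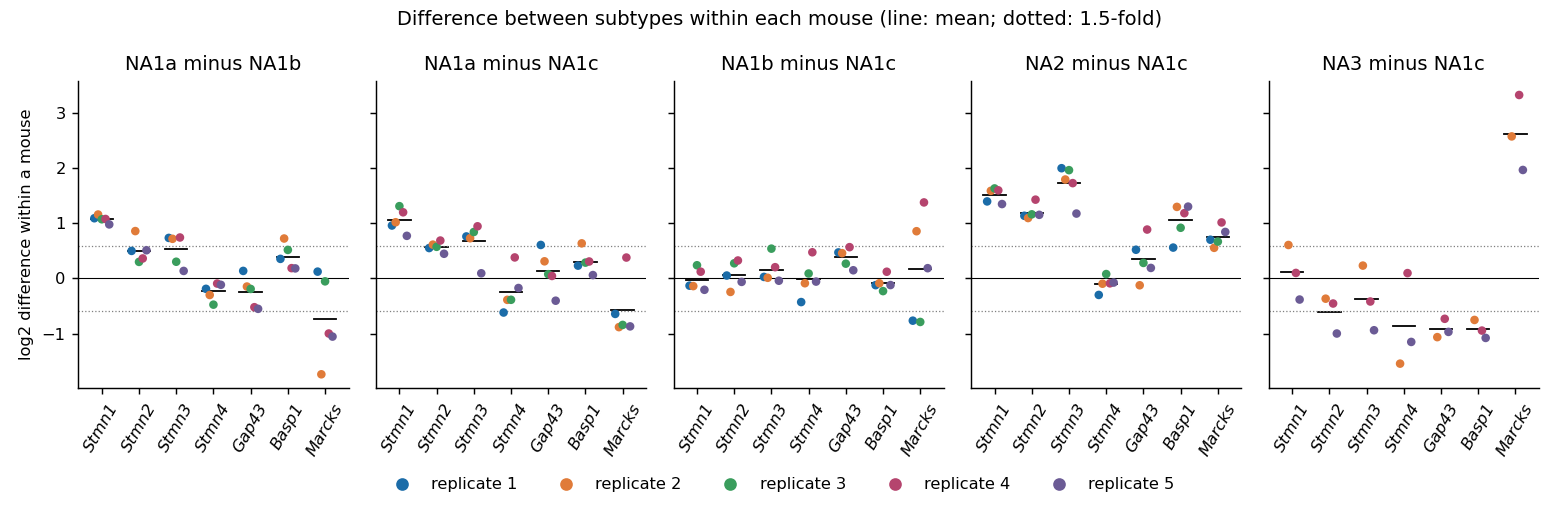
Difference between 2 subtypes of the same mouse in log2 of the level plus 0.1 (vertical axis) for the 7 members above the minimum level, with 1 point per mouse, lines for means and dotted lines at 1.5-fold. Stmn1 was higher in NA1a than in NA1b by 0.98 to 1.16 in the 5 mice, and Stmn1, Stmn2, Stmn3, Basp1 and Marcks were higher in NA2 than in NA1c in all 5.

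In NA2, 5 of the 7 members were higher than in NA1c. Stmn3 exceeded NA1c by log2 1.73 ± 0.33, Stmn1 by 1.51 ± 0.13, Stmn2 by 1.19 ± 0.13, Basp1 by 1.05 ± 0.32 and Marcks by 0.75 ± 0.18 (SD, n = 5), each in 5 of 5 mice. Gap43 differed by 0.35 ± 0.38 and Stmn4 by -0.10 ± 0.13, with replicates of both signs. The 2 subtypes differed widely, since 56.4% of 4735 genes were apart, 25.0% higher and 31.4% lower in NA2. The median over all genes compared was -0.14, against 1.05 over the 7 members. Relative to the median gene of each profile Stmn4 turned to 0.15 and Gap43, at 0.59, was apart, the median over all genes became 0.10, and 1472 genes were higher and 1257 lower in NA2. Against NA1a, 4 of the 7 members were apart, beside 49.7% of 4449 genes, 21.5% higher and 28.2% lower in NA2. NA2 was higher in Marcks by 1.33 ± 0.41, in Stmn3 by 1.06 ± 0.17, in Basp1 by 0.75 ± 0.34 and in Stmn2 by 0.62 ± 0.10 (SD, n = 5). Stmn1, at 0.46 ± 0.11 and higher in 5 of 5 mice, was under the 1.5-fold limit.

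NA2 combined these higher levels with a low share of nuclear RNA and with shared barcodes. The 8 members together made 116 to 134 UMIs per 10000 in NA2, 68.6 to 89.2 in NA1a and 50.7 to 60.8 in NA1c. Without the neurons of shared barcodes, which left 4 mice with 10 NA2 neurons, the difference from NA1c was 1.33 for Stmn1, 1.19 for Stmn2, 1.48 for Stmn3 and 0.99 for Basp1. Those 4 members stayed apart, and Marcks, at 0.52, did not. Over all genes 2548 were apart in that setting, against 2670 with all neurons. When mitochondrial and the 6 nuclear transcripts were taken out before scaling, the differences were 1.36, 1.05, 1.58 and 0.92 for the same 4 members, and 0.62 for Marcks. These 5 members were apart in that setting, and 2863 of all genes were. The part of RNA composition and of shared barcodes in these differences was not tested. Low nuclear RNA also occurred outside NA2. The pooled Glut neurons, with a median of 0.0904% nuclear RNA, had Stmn2 at 33.5 and Basp1 at 12.2 UMIs per 10000, and Ach1, at 2.12%, had 24.6 and 7.23.

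**Figure D4:**
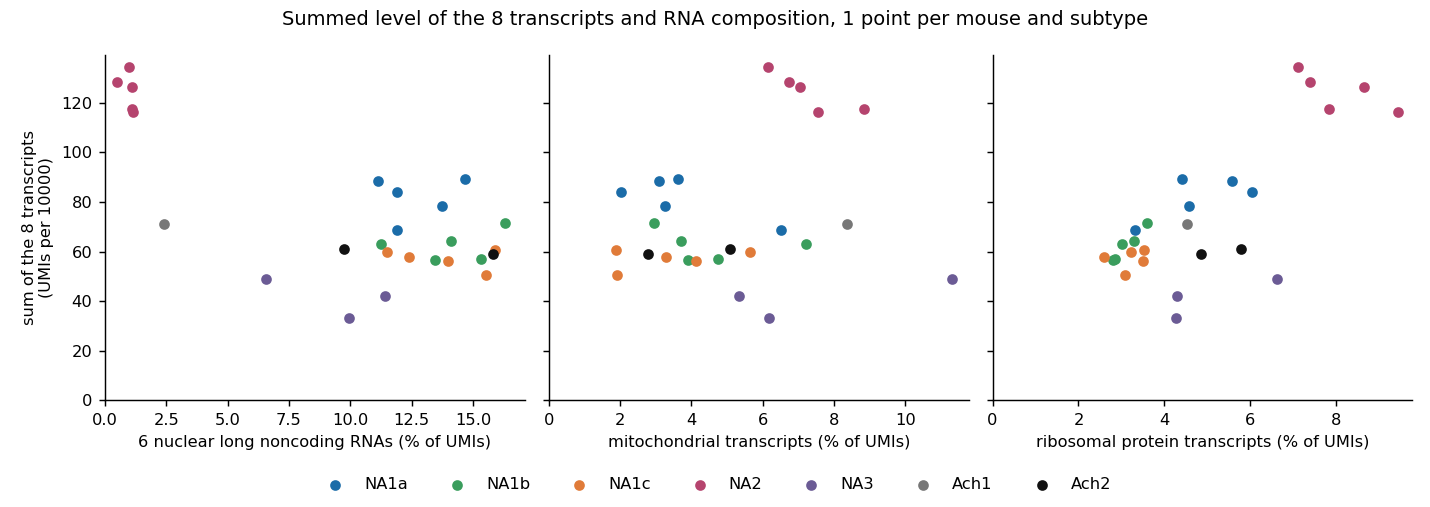
Sum of the 8 members in UMIs per 10000 (vertical axis) against the share of UMIs in 6 nuclear long noncoding RNAs, in mitochondrial transcripts and in ribosomal protein transcripts, with 1 point per mouse and subtype. The 5 NA2 points, at 116 to 134 UMIs per 10000, had nuclear shares of 0.481% to 1.12%, and the Ach1 point, at 2.41%, had a sum of 71.0.

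NA3 differed from NA1c in both directions. Marcks was higher by log2 2.62 ± 0.68 (SD, n = 3), or 6.14-fold. Basp1 was lower by log2 0.93 ± 0.16, Gap43 by 0.92 ± 0.17 and Stmn2 by 0.61 ± 0.34 in 3 of 3 mice, the last just inside the 1.5-fold limit. Stmn1, at 0.11 ± 0.49, Stmn3, at -0.38 ± 0.59, and Stmn4, at -0.87 ± 0.86, had mice of both signs. Thus 4 of 7 members were apart, against 52.1% of 4899 genes, a share near the background. With a pseudocount of 1, Marcks, Gap43 and Basp1 were apart, and 22.5% of genes were. The median of all genes compared was -0.29, and that of the 8 neuronal markers, all lower in NA3, was -0.98. Relative to the median gene of each profile Stmn2, at -0.48, was no longer apart, and Marcks, at 2.75, Gap43, at -0.79, and Basp1, at -0.79, were. Over all genes 2427 were apart in that setting. With at least 5 neurons in place of 10, NA3 was present in 5 mice and differed from NA1c by 2.00 in Marcks, -0.67 in Stmn2, -0.89 in Gap43 and -1.08 in Basp1. These were the 4 members apart as before, and 2019 of all genes were apart.

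Partners of the members were followed in 5 lists. None of 9 tubulins was apart between NA1a and NA1b, so the higher Stmn1 of NA1a was not accompanied by a tubulin difference past the limit, and the tubulin median was -0.25 against -0.01 over all genes. Of 19 microtubule-associated and collapsin response mediator proteins 2 were lower in NA1a. They were Map1a, which stabilises axonal microtubules, at 1.29 ± 0.441 against 3.32 ± 0.517 UMIs per 10000, and Mapt, the tau gene, at 4.89 ± 0.567 against 9.20 ± 2.67 (SD, n = 5). Of 25 actin and growth cone genes 1 was higher and 2 were lower in NA1a. Tmsb4x, which holds monomeric actin, was higher by log2 0.62 ± 0.31, and Limk1, a kinase of the actin regulator cofilin, and Add2, an actin-capping adducin, were both lower by log2 0.90, with SDs of 0.72 and 0.67. Of 25 kinases, calmodulins and phosphatases none was apart. Of 11 regeneration-associated genes 2 were higher in NA1a, Gal, the galanin gene, by log2 2.64 ± 0.38 and Ecel1, a neuronal peptidase induced by nerve injury, by 1.96 ± 0.60. For comparison, 7.71% of all genes were higher and 8.03% lower in NA1a.

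In NA2 against NA1c, 6 of 9 tubulins were higher and none lower, with a median of log2 0.79, beside the 25.0% and 31.4% over all genes. Of the microtubule-associated proteins 2 were higher and 7 lower of 19, with a median of -0.54. Of 27 actin and growth cone genes 12 were higher and 3 lower, and Tmsb4x was higher by 2.61 ± 0.18 (SD, n = 5). Of 27 kinases, calmodulins and phosphatases 7 were higher and 9 lower, and of 12 regeneration-associated genes 1 was higher and 5 were lower, with Gal at 0.35 ± 0.09 and Ecel1 at -2.17 ± 0.84. In NA3 against NA1c, where 21.0% of all genes were higher and 31.1% lower, 4 of 9 tubulins and 12 of 19 microtubule-associated proteins were lower and none higher. Of 28 actin and growth cone genes 8 were higher and 6 lower, of 27 kinases, calmodulins and phosphatases 9 were lower, and of 14 regeneration-associated genes 8 were higher and 5 lower. In NA1a against NA1c the 5 lists had 6 genes higher and 8 lower in all, beside 8.95% and 8.64% of all genes. In NA1b against NA1c they had 3 higher and 7 lower, beside 3.52% and 4.15%.

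The members also differed in which other genes followed them over the 26 profiles of mouse and subtype, each taken relative to its mouse. These correlations are descriptive, since profiles share mice, cells and RNA composition. Stmn2 was most like Rtn1, a reticulon of the neuronal endoplasmic reticulum, with Pearson's r of 0.96, and like the tubulins Tubb3 and Tubb5 with 0.95 and 0.94. Basp1 was most like Tubb2b, Tubb3 and Tubb5, with 0.92, 0.92 and 0.91. Stmn1 followed Dynll1, a dynein light chain, Ptma and Tomm20 with 0.89, 0.89 and 0.88. Stmn3 followed Phox2a, a transcription factor of noradrenergic neurons, Cisd1 and Dctn3, a dynactin subunit, with 0.95, 0.95 and 0.94. Stmn4 had no gene above 0.76, with Sod1, Vamp2 and Isl1 as the nearest. Gap43 followed Habp4, Pirt and Pcsk1n with 0.90, 0.83 and 0.80, Marcks followed Dnajc3, Aldh2 and Laptm4a with 0.86, 0.81 and 0.81, and Marcksl1 followed Rhoc, Sdc4 and Dbi with 0.87 each. Among the members themselves Stmn2 and Basp1 had 0.94, Stmn2 and Stmn3 0.91, Stmn1 and Stmn2 0.86, Gap43 and Stmn2 0.58, and Gap43 and Marcksl1 -0.74.

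Within a subtype the members were far less alike from neuron to neuron. For Stmn2 with Stmn3 the correlation over NA1a neurons averaged 0.39 over the 5 mice, with a range of 0.24 to 0.64, and over NA1c neurons 0.02, with a range of -0.12 to 0.11. Stmn2 with Basp1, the closest pair over profiles, averaged 0.19 to 0.20 over the NA1 subtypes and 0.01 in NA2. Counts of these genes in a neuron are low, so these weak values are given without a reading.

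Reporter transcripts marked few neurons. Over NA1a, NA1b, NA1c and NA3, 6 neurons held GFP from the heart, 20 held tdTomato from the paws (1 held both) and 940 held neither. The median level of Stmn2 was 29.9, 25.5 and 21.0 UMIs per 10000 in these sets, that of Basp1 8.09, 7.37 and 5.09, and that of Stmn1 7.04, 6.28 and 6.33. The median depth of the sets also differed, at 5835.5, 2699.5 and 4312 UMIs. With 6 and 20 neurons spread over mice and subtypes, no test was made.

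The study divides its neurons by Npy, and this contrast within a subtype and mouse was not used to choose the members. Neurons at or below the 30% and at or above the 70% quantile of Npy in their mouse and subtype were compared in the NA1 subtypes of 5 mice and in NA2 of 4 mice (replicate 2 had too few), with at least 5 neurons on each side. Differences, high minus low, were tested with limma over 3829 genes with Benjamini-Hochberg adjustment, and 7 members entered the test in 4 subtypes. Of these 28 tests 2 passed, Stmn1 in NA1c and Gap43 in NA2. Averaged over the subtypes, no member passed by limma, against 0.862% of all genes. The unadjusted limma p was below 0.05 in 2 of the 7 members and in 403 of the 3829 genes.

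In NA1c, Stmn1 was higher in the Npy-high neurons, whose median Npy was 54.2 to 74.7 UMIs per 10000 against 10.9 to 18.8 in the Npy-low neurons. The Npy-low neurons of replicates 1 to 5 had 7.18, 6.69, 2.09, 1.57 and 4.36 Stmn1 UMIs per 10000, and the Npy-high neurons of the same mice 9.79, 7.52, 12.8, 6.73 and 8.55. Each mouse was higher, though the sets overlapped between mice. Stmn1 rose by log2 1.23 ± 0.25 (SE) in 5 of 5 mice (limma, Benjamini-Hochberg adjusted p = 0.00458), and 1.78% of all genes passed in NA1c, 67 of 68 of them upward. The SE rests on 1 variance per gene shared by the 4 subtypes, whereas the NA1c differences ranged from 0.17 to 2.56 over mice. The largest differences came from replicates 3 and 4, which had 6 and 7 neurons on each side. Without replicate 3 the difference was 0.90 (limma adjusted p = 0.182) and without replicate 4 it was 1.03 (limma adjusted p = 0.0937). Strata split at the median gave 0.71 (limma adjusted p = 0.0610), and over the 14 alternatives the limma adjusted p ranged from 0.00135 to 0.182. The median depth over mice was 3063 UMIs on the low and 3466 on the high side, and the mean sum of satellite glia markers was 19.4 and 16.1 UMIs per 10000. The nuclear transcripts took 17.9% of UMIs on the low and 13.0% on the high side of replicate 3, and 19.4% and 13.7% in replicate 4. With these and mitochondrial transcripts taken out before scaling, the difference was 1.21 (limma adjusted p = 0.00250). With neurons thinned to equal depth the difference was 1.27 (limma adjusted p = 0.0972).

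In NA2, Gap43 was lower in the Npy-high neurons. The Npy-low neurons of replicates 1, 3, 4 and 5 had 21.6, 22.8, 23.7 and 13.7 Gap43 UMIs per 10000, and the Npy-high neurons 11.8, 10.9, 14.4 and 8.79. Only the low side of replicate 5 fell within the range of the high side. Gap43 fell by 0.82 ± 0.23 (SE) on the log2 scale in 4 of 4 mice (limma, Benjamini-Hochberg adjusted p = 0.0346), and 3.47% of all genes passed in NA2. Without the neurons of shared barcodes the difference was -0.86 (limma adjusted p = 0.0921). The call was also lost when replicate 1, 2, 3 or 5 was left out of the whole fit in turn, with limma adjusted p of 0.121, 0.0668, 0.138 and 0.0578. Without the replicate block, that is, with the pairing of strata ignored, limma's adjusted p was 0.137. Over the 14 alternatives the value ranged from -1.08 to -0.41, with limma adjusted p from 0.0147 to 0.140. In replicate 5 the high side held a median of 12936 UMIs and the low side 2811, the nuclear transcripts had means over mice of 0.588% on the low and 1.03% on the high side, and the fibroblast marker Dcn was higher on the high side by log2 2.94 ± 0.62 (SE, limma adjusted p = 0.00256). The part of these in the Gap43 difference was not tested.

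**Figure D5:**
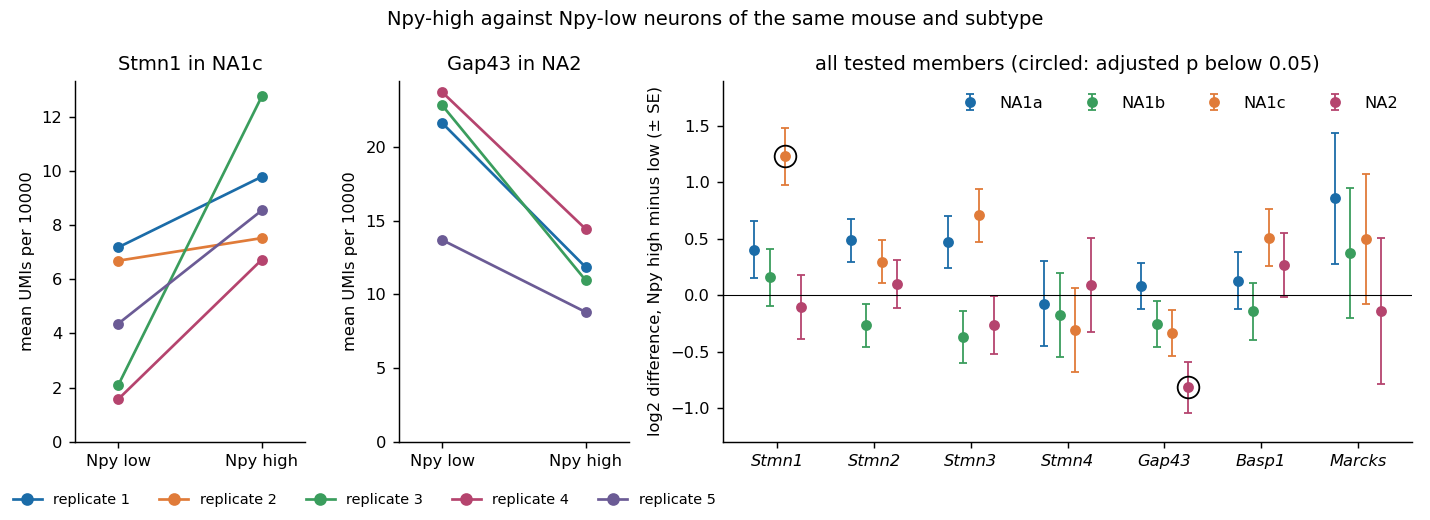
Left and middle, level in mean UMIs per 10000 of Stmn1 in NA1c and of Gap43 in NA2 in Npy-low and Npy-high neurons, with 1 line per mouse. Right, log2 difference, high minus low, with its standard error for the 7 tested members in 4 subtypes, where circles mark limma adjusted p below 0.05, which are Stmn1 in NA1c and Gap43 in NA2.

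The other members did not pass. Stmn3 differed by log2 0.71 ± 0.23 (SE) in NA1c in 5 of 5 mice (limma, Benjamini-Hochberg adjusted p = 0.110). Its differences were 0.47 ± 0.23 for NA1a, -0.37 ± 0.23 for NA1b and -0.27 ± 0.26 for NA2. Stmn2 differed by 0.49 ± 0.19 in NA1a and by -0.27 ± 0.19 in NA1b, where 5 of 5 mice were negative. The sides differed in depth, with medians over mice of 7607 UMIs on the low and 2664.5 on the high side of NA1b. In NA1a these were 6535 and 8846.5. Mitochondrial transcripts averaged 3.60% on the low and 5.32% on the high side of NA1b. The part of these in the Stmn2 differences was not tested. In NA1a no gene passed of 3829 by limma, with 171 at an unadjusted p below 0.05, and in NA1b 0.0522% passed. Stmn1 differed by 0.40 ± 0.25 for NA1a, 0.16 ± 0.25 for NA1b and -0.10 ± 0.28 for NA2, and its differences were not shown to differ between the subtypes (limma F test, adjusted p = 0.123, while 1.83% of genes passed). The same test gave an adjusted p of 0.339 for Gap43. Stmn4 and Marcks had standard errors of 0.37 or more and Basp1 of 0.25 or more, and none of their differences passed.

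Partner genes were called in few cases in the same limma fit. Averaged over the subtypes, 2 of the 5 lists had a gene that passed. Actb, the cytoplasmic actin, rose by log2 0.56 ± 0.14 (SE, limma adjusted p = 0.0401). Gal rose by 1.00 ± 0.17 (SE, limma adjusted p = 0.000239), and Lifr, the leukemia inhibitory factor receptor, fell by 1.49 ± 0.28 on the log2 scale (SE, limma adjusted p = 0.00135). These averages rest on the 5 matched mice, whose subtypes were entered as separate observations. In NA1c, beside Stmn1, the list genes that passed were Tubb2a, a tubulin, at 1.31, Tmsb10, a relative of Tmsb4x, at 1.20, and Gal at 1.55, all upward. In NA2, beside Gap43, Map6, Actb and Gal were higher, by 2.46, 1.42 and 1.64, and Add2, Cdk5, a kinase active in neurons, and Lifr were lower, at -1.48, -1.94 and -2.85. The genes named for single subtypes were chosen after their values were seen.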

How the data were processed

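Dissociated stellate ganglion cells were sequenced in droplets with unique molecular identifiers (UMIs). The authors aligned reads with Cell Ranger (version 2.1.1 per the submitters' processing notes, mm10) to GRCm38 with reporter sequences added, kept cells with 500 to 6000 genes, under 20000 UMIs and under 15% mitochondrial RNA, and clustered the neurons in Seurat. As deposited, each value is a natural log, taken of UMIs per 10000 with 1 added. UMIs were recovered from them, and 100% of values above 0 lay within 0.01 of a whole number, while 88.0% of all values were 0. The subtypes and mouse names are the authors'. Their paper names no doublet removal. Cell Ranger drops reads that match several genes, so Marcksl1, which has the annotated copy Marcksl1-ps4, may be undercounted. Stmn1 and Gap43 overlap the miRNA genes Gm23634 and Mir6540 on their own strand. Coding sequences came from GENCODE vM21 on GRCm38, and identities from a global alignment in Biopython 1.88.

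The 5 mice of replicates 1 to 5 held 165 to 235 neurons and 916296 to 1196621 UMIs each. The members, lists and tests were chosen with earlier results of these data known. Levels are means of UMIs per 10000 per mouse and subtype with at least 10 neurons. Differences are within-mouse differences of log2(level + 0.1), which understate changes of low genes, over genes averaging 0.5 or more in either subtype. They are apart when at least 1.5-fold on average with 1 sign in every mouse. The Npy strata were fitted with limma 3.58.1 in R 4.3.3 on within-mouse differences, with 1 coefficient per subtype and an intensity trend, and Benjamini-Hochberg adjusted p below 0.05 was called. Each gene had 1 residual variance over the 4 subtypes, so a standard error is not the spread of the mice of 1 subtype. Strata of the same mouse come from 1 animal and were therefore paired. The correlation of their deviations from group means had a median of 0.0847 over 19 pairs (-0.0223 to 0.219). The differences of 1 mouse in several subtypes entered the fit as separate observations, with no mouse term. On simulated data for the average over subtypes, with 3829 genes, 70% of genes shifted by log2 1 and 99.5% of those shifted by 2 were recovered.

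The text names the 8 members, the 3 genes most correlated with each, the 2 list genes per direction most apart between NA1a and NA1b, and list genes called for the average over Npy strata. Alternatives were leaving out each mouse, thinning to 2000 UMIs, summing UMIs over neurons, neurons with under 0.5% satellite glia marker UMIs, at least 5 neurons, a pseudocount of 1, centring, no filter, strata at the median and no pairing. Leaving out shared barcodes and scaling without mitochondrial and nuclear RNA were added after seeing the data. Intervals of counts cover counting error only.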

Additional observations from a re-analysis of the deposited data

Results flagged for a closer look

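Stmn4 in NA1c was 1.45 UMIs per 10000 in replicate 4, while the 4 other mice had 2.20 to 2.32, so replicate 4 stood apart by Dixon's criterion. Marcksl1 in NA1c was 0.0653 in replicate 5 and 0 in the other 4 mice, and in NA2 it was 0.0381 in replicate 4 and 0 in the other 4. Chance alone makes about 1 in 20 groups of roughly normal values stand apart in this way, and 32 groups were examined. This rate does not apply to Marcksl1, where with the other 4 mice at 0 any UMI in 1 mouse met the criterion.

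The Npy-high minus Npy-low difference of Stmn3 was log2 0.47 in NA1a and 0.71 in NA1c, positive in 5 of 5 mice of each, and -0.27 in NA2, negative in 4 of 4 mice. The difference between these pairs of subtypes was not tested. The limma F test of equality over all 4 subtypes gave a Benjamini-Hochberg adjusted p of 0.117.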

How the results depend on the processing

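Of 312 values or counts of subtype differences recomputed other than by leaving out a mouse, 287 stayed within the replicate spread or within 1.5 times the count, and 25 moved further. Of 280 values of subtype levels, 228 stayed within the spread and 52 moved, many of them in Ach2, which had 2 mice, or when scaled without mitochondrial and nuclear RNA. The moved values include Marcksl1 in NA1b, which was 0 in each setting and had no spread to stay within. With a pseudocount of 1, the count of genes apart went to 193 from 686 for NA1a against NA1b, 214 from 772 for NA1a against NA1c, 84 from 333 for NA1b against NA1c, 1761 from 2670 for NA2 and 1100 from 2551 for NA3. Leaving out each mouse gave 1 to 2 members apart between NA1a and NA1b, and 683 to 967 of all genes. The members called in NA1c went from 1 to 0 with no filter, after thinning and with strata at the median, and to 3 with summed UMIs, where Stmn3 (0.93, limma adjusted p = 0.00854) and Basp1 (0.84, limma adjusted p = 0.0427) joined. The members called in NA2 went from 1 to 0 with no filter, after thinning, with strata at the median, without shared barcodes and without the replicate block, where limma's adjusted p for Gap43 was 0.137. The replicate block changed no other member call. Leaving out each mouse gave 0 to 1 members called in NA1c and 0 to 1 in NA2. Over all genes, 68 calls in NA1c became 3 without replicate 4, 12 without replicate 3, 114 without replicate 5, 4 with no filter, 5 with strata at the median, 19 after thinning and 222 with summed UMIs. The 133 in NA2 became 39, 72, 82 and 85 after thinning, without shared barcodes, with no filter and without replicate 2, and the 33 for the average 9, 16, 17, 67 and 20 after thinning, with no filter, with strata at the median, summed and without replicate 2. The causes were not tested.

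Log2 Npy differences that changed sign, none of them called, were these. Thinning gave Stmn4 0.45 in NA1a, 0.24 in NA1b and 0.0606 on average, Stmn1 0.15 in NA2 and Marcks -0.0483 on average. Summing gave Stmn1 0.0704 in NA2, Gap43 -0.0205 and Basp1 -0.0318 in NA1a and Basp1 0.15 in NA1b. Strata at the median gave Stmn4 0.19 in NA1a and -0.25 in NA2, and Marcks -0.0182 in NA1b and 0.37 in NA2. Without shared barcodes Stmn4 was -0.25 and Marcks 0.19 in NA2, and centring gave Stmn4 0.0157 in NA1a. Leaving out each mouse gave Stmn4 -0.28 to 0.0664 in NA1a, -0.46 to 0.0716 in NA1b, -0.61 to 0.0608 in NA1c and -0.0295 to 0.36 in NA2, Marcks -0.30 to 0.91 in NA1c and -0.54 to 0.22 in NA2, Basp1 -0.29 to 0.12 in NA1b, Gap43 -0.00545 to 0.19 in NA1a and Stmn2 -0.0106 to 0.16 in NA2. Depth limits Stmn4, Marcks and Marcksl1 most, since most neurons outside NA3 had no UMI of Marcks or Marcksl1.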
